A study of Mus musculus with 2 samples.

Results

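The genes of the mitochondrial respiratory chain and ATP synthase were described in innate lymphoid cells (ILCs) of mouse skin, comparing the genes coded in the nucleus with those coded in mitochondrial DNA. Members were every gene symbol of the deposited table that starts with Nduf, Uqcr, Atp5 or mt-, that starts with Cox followed by a digit from 4 to 8, or that is Sdha, Sdhb, Sdhc or Sdhd. This gave 103 of the table's 18786 symbols, 90 of them nuclear and 13 with the prefix mt-. Membership rested on names and used no measured value. By complex, the nuclear members were 36 subunit genes of complex I with 8 of its assembly factors, 4 genes of complex II, 8 of complex III, 18 of complex IV and 15 of ATP synthase with 1 associated gene, Atp5s. Ndufa4 and Ndufa4l2, named after complex I, were placed with complex IV, where Ndufa4 is now known to sit. Of the mt- genes, 7 belong to complex I, 1 to complex III, 3 to complex IV and 2 to ATP synthase.

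The study captured ILCs, lymphocytes without a rearranged antigen receptor, from skin of the C57/BL6 strain taken at postnatal day 1 or day 14, and its labels list 1 library per day. The cells were sorted as CD45+, lineage-negative and Thy1.2+ after collagenase digestion, and no genotype or treatment is named. Cell names carry 1 of 2 suffixes, which match neither day's label. The groups are therefore called cell set 1 and cell set 2, no age is assigned to either, and a difference between them is not read as a difference of age. The labels do not say how many mice each library holds. Within each set, cells with 3 or more unique molecular identifiers (UMIs, tags that count each captured RNA molecule once) of Mki67, Top2a and Birc5 together were called cycling, and the rest are called other cells. All 3 are genes of dividing cells. Cells in which mt- genes gave more than 10% of UMIs were left out, 30 of 1471 in set 1 and 267 of 3775 in set 2.

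Electrons from NADH enter the chain at complex I and those from succinate at complex II. They pass through ubiquinone to complex III, through cytochrome c to complex IV and from there to oxygen, while complexes I, III and IV pump protons across the inner membrane and ATP synthase, complex V, uses that gradient to make ATP. Mitochondrial DNA codes core subunits of complexes I, III, IV and V, whereas complex II is wholly nuclear, so the other complexes need transcripts of both genomes. Lymphocytes that divide are known to build up both mitochondrial mass and glycolysis.

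The kept cells fell into 451 cycling and 990 other cells of set 1 and 177 cycling and 3331 other cells of set 2. They held between 1709926 and 16316222 UMIs per group. Cycling cells were the deeper ones, with a median of 15545 UMIs against 9283.5 in set 1 and 9019 against 4747 in set 2. Of 8 further cycling genes that the rule did not use, 8 were higher in cycling cells of both sets. Their summed level was 761 against 99.2 UMIs per 1000000 UMIs of a group (CPM) in set 1 and 860 against 68.6 in set 2. RNA of the sort markers was visible. Ptprc, which codes CD45, lay between 372 and 680 CPM in the 4 groups and Thy1 between 194 and 497. T cell markers summed to between 19.1 and 36.0 CPM. The sets differed in RNA of ILC types. Type 3 ILC markers summed to 142 and 234 CPM in cycling and other cells of set 1, and 25.7 and 51.5 in set 2. Of these 4 genes, 2 were higher in set 2 in other cells and 1 in cycling cells. Type 2 ILC markers summed to 1623 and 1660 CPM in set 1 and 2126 and 2293 in set 2. Of other cell types, mast cell markers, a list that holds Kit, which some ILCs also express, summed to between 148 and 209 CPM in the 4 groups. The genes of this list other than Kit were higher in set 1 than in set 2. Of these, Cma1 was at 19.4 and 57.9 CPM in cycling and other cells of set 1 and had 0 UMIs in set 2. Erythroid markers, mostly haemoglobin genes, summed to 190 CPM in other cells of set 1, 231 in those of set 2, and 44.1 and 15.2 in cycling cells. Of 16-base barcodes, 4 occurred in both sets. Every comparison below sets 1 group of cells beside another without replicates, so no test was run, and the 95% intervals cover counting error only. Fewer cells of a type and less RNA per cell are not told apart by a summed level.

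Promoter sequence was read for 72 of the 90 nuclear members, in 77 windows from RefSeq on the GRCm38.p6 build, each running from 250 bases before to 50 bases after an annotated start. On both strands, 4 short motifs known from respiratory chain promoters were searched: NRF1 as GCGCA and GCGC with any 1 base (N) between them, ETS as CCGGAAGT, YY1 as AAGATGGCG and SP1 as GGGGCGGGG. The NRF1 letters occurred for 18 of 72 members (25%), beside 5.19% of 27025 genes with a promoter in RefSeq and 9.16% of the 13439 that are also in the deposited table. YY1 letters occurred for 8 members (11.1%, beside 1.64% and 2.79%). The ETS letters occurred for 5 members (6.94%, beside 4.31% and 7.21%) and the SP1 letters for 11 (15.3%, beside 12.9% and 21.5%). At least 1 of the 4 motifs was present for 37 members (51.4%, beside 20.8% and 34.8%), and different motifs overlapped in 0 of 77 windows. A match describes letters only and is not a measured binding site.

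Shown next are the 120 bases before the start of 6 members, 5′ to 3′ on the gene's own strand, with motif letters of either strand in capitals. Sdha (chr13:74350241-74350360, minus strand) and Ndufb4 (chr16:37654369-37654488, minus strand) hold the NRF1 letters more than once. Uqcr11 (chr10:80406822-80406941, minus strand) and Uqcrh (chr4:116075071-116075190, minus strand) both hold the ETS letters, and they lay on opposite sides of no difference between cycling and other cells. Atp5j (chr16:84834977-84835096, minus strand, 1 of its 2 windows) holds the YY1 letters and was among the members of ATP synthase with the highest ratio in cycling cells. Cox7a2l (chr17:83514334-83514453, minus strand), the member with the lowest ratio in cycling cells of set 2, holds none of the 4 motifs here. Members with high ratios in cycling cells can lack them too, such as Ndufc2 and Ndufab1. Ndufa6, which was lower in cycling cells, holds NRF1 and SP1 letters in its window. Whether motifs go with the ratios was not tested.
Sdha: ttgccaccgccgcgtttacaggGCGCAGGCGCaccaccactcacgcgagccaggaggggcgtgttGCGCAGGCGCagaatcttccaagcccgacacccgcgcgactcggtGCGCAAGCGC
Ndufb4: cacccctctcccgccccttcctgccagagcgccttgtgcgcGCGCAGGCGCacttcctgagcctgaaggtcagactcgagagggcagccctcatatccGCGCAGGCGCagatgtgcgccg
Uqcr11: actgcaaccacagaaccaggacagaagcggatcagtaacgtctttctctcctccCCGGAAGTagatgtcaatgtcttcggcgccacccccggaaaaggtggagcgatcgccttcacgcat
Uqcrh: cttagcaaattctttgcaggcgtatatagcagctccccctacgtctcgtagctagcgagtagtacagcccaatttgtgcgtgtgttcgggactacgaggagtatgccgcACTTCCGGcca
Atp5j: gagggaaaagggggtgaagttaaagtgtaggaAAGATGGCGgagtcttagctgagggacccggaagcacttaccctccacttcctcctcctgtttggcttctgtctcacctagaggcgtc
Cox7a2l: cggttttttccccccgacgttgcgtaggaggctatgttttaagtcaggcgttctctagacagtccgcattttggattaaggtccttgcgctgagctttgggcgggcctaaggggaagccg
The levels of Uqcr11 and Uqcrh follow with complex III.

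Nuclear members took a larger share of UMIs in cycling than in other cells of both sets. The share was 2.20% in cycling and 1.97% in other cells of set 1, and 2.17% against 1.69% in set 2. On the log2 scale the ratio of the summed level was 0.16 (95% 0.15 to 0.17) in set 1 and 0.36 (0.34 to 0.38) in set 2. The gap between the sets in this ratio depended on the scaling. With trimmed-mean (TMM) factors it was 0.11 in set 1 and 0.10 in set 2, whereas in cells thinned at random to 3000 UMIs, classed before thinning like all values of thinned cells given per gene, it was 0.17 and 0.35. The mt- genes did not show this excess. They took 3.29% of UMIs in cycling and 3.40% in other cells of set 1, a log2 ratio of -0.05 (-0.06 to -0.04), and 2.19% against 2.81% in set 2, a ratio of -0.36 (-0.37 to -0.34). The balance of both genomes therefore differed more in set 2. Nuclear UMIs per mt- UMI stood at 0.669 in cycling and 0.578 in other cells of set 1, and at 0.991 and 0.603 in set 2. The log2 ratio of this balance, which does not depend on how libraries are scaled, was 0.21 (0.20 to 0.22) in set 1 and 0.72 (0.69 to 0.74) in set 2.

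**Figure D1:**
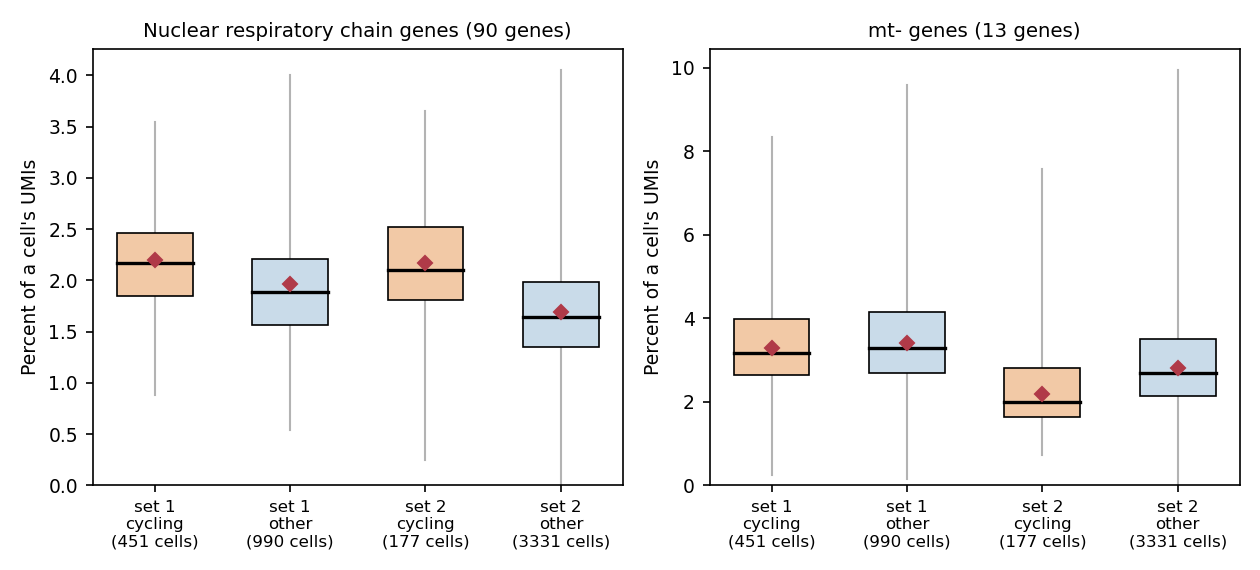
Share of a cell's UMIs from the 90 nuclear members (left) and the 13 mt- genes (right), in percent, for cycling and other cells of both cell sets. Boxes run between quartiles with the median as a line, grey lines reach the lowest and highest cell, and diamonds give the share of the group's summed UMIs. The nuclear medians are 2.17% and 1.89% in set 1 and 2.10% and 1.64% in set 2, and the lowest mt- median, 2.01%, is that of cycling cells of set 2.

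Single cells overlapped widely between groups, as the plot of shares per cell shows. In set 2 the nuclear share of a cell ran from 0.247% to 3.66% in cycling cells, with a median of 2.10%, and from 0% to 4.05% in other cells, with a median of 1.64%. The mt- share ran from 0.717% to 7.58% in cycling cells of set 2 and from 0% to 9.94% in its other cells. Across cells, the nuclear share of UMIs other than mt- and the mt- share went in opposite directions. Spearman's rho was -0.20 over 451 cycling and -0.17 over 990 other cells of set 1, and -0.37 over 177 and -0.18 over 3331 cells of set 2. Both shares of a cell come from 1 library and move with its depth, so these values are a description.

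Gene by gene, 85 of the 90 nuclear members had the 100 UMIs over both groups that a ratio was read from in set 1, and 84 did in set 2. A gene is called past the fold below where its levels differed by a ratio of at least 5 to 4. In set 1, 22 of 85 were higher by that fold in cycling cells and 3 were lower, beside 22.5% higher and 13.2% lower among all 8085 genes with as many UMIs. The share of members past this fold in the upper direction was 25.9%, near that of all genes. In set 2, 54 of 84 were higher by that fold and 1 was lower, beside 32.3% and 18.6% of 8062 genes. The share of members there was 64.3%. With TMM factors 27 were higher (32.1%) and 3 lower, beside 17.1% and 35.8% of all genes under the same factors. The median member lay at 0.18 in set 1 and 0.45 in set 2 on the log2 scale, and the median of all genes at 0.05 and 0.11. A different scaling shifts members and all genes by the same amount, so the distance between these medians stays. Past the fold in the upper direction in both sets were 20 of 84 nuclear members (23.8%), beside 15.8% of 7562 genes. Across these 84 genes the ratios of both sets had a Pearson r of 0.70 and a Spearman rho of 0.70, a description over genes that are not independent. The members under 100 UMIs in set 1 were Cox4i2, Cox6a2, Cox8b, Ndufa4l2 and Atp5s, and Ndufaf6 was also under it in set 2.

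**Figure D2:**
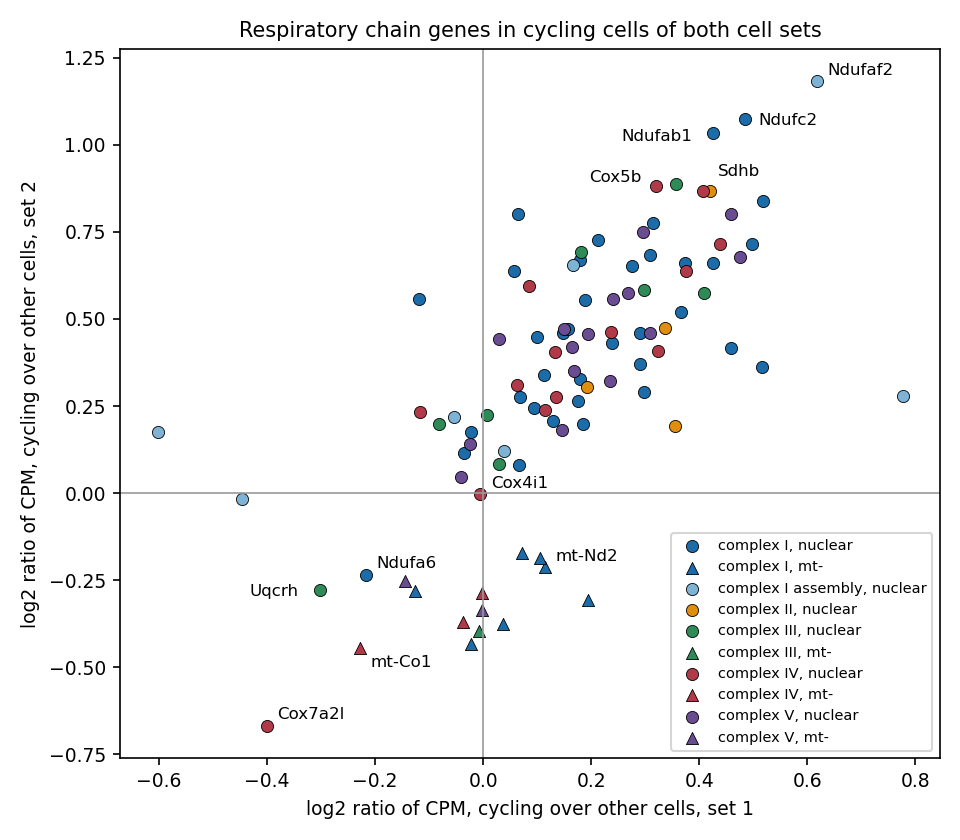
Log2 ratio of CPM, cycling over other cells, in set 1 (x axis) and set 2 (y axis), 1 point per member with at least 100 UMIs in each comparison, coloured by complex, with circles for nuclear and triangles for mt- genes. Of 84 nuclear members 70 lie above 0 in both sets, beside 3316 of 7562 among all genes. With CPM all 13 mt- genes lie below 0 in set 2, mt-Nd3 lying at 0.07 in thinned cells.

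Complex I takes electrons from NADH. Its 36 nuclear subunit genes summed to 5742 CPM in cycling and 5038 in other cells of set 1 and to 5617 and 4268 in set 2, which is 1.14-fold and 1.32-fold higher. Past the fold upward were 9 of 36 genes in set 1, a share near the 22.5% of all genes, and 26 in set 2, beside 32.3%, with 0 downward in either. Ndufc2, a small accessory subunit of the membrane arm, lay at 183 CPM in cycling and 131 in other cells of set 1 and at 184 and 87.5 in set 2, log2 ratios of 0.49 (95% 0.37 to 0.60) and 1.07 (lower bound 0.89). Ndufab1, the mitochondrial acyl carrier protein, lay at 135 and 100 CPM in set 1 and at 150 and 73.1 in set 2, ratios of 0.42 (0.29 to 0.56) and 1.04 (0.83 to 1.23). Both were higher in cycling cells of each set, and their cycling cells differed little between the sets. Ndufa6, an accessory subunit of the matrix arm, went the other way. Its level was 214 CPM in cycling and 248 in other cells of set 1 and 219 and 257 in set 2, with ratios of -0.22 (-0.31 to -0.12) and -0.23 (-0.39 to -0.08). Ndufa13, an accessory subunit also known as GRIM-19, lay at 316 and 324 CPM in set 1 and 348 and 321 in set 2, and counting error covered no difference in both. Ndufa2, the nuclear gene of this complex with the most UMIs, was at 353 and 323 CPM in set 1 and 362 and 314 in set 2.

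Complex II oxidises succinate and also works in the tricarboxylic acid cycle. Its 4 genes summed to 344 CPM in cycling and 274 in other cells of set 1 and 318 and 224 in set 2, log2 ratios of 0.33 and 0.51. Sdhb, the iron-sulphur subunit, was at 132 and 98.7 CPM in set 1 and 130 and 71.2 in set 2. Sdhc, a membrane anchor, was at 52.5 and 41.5 CPM in set 1, a log2 ratio of 0.34, and its ratio was 0.47 in set 2. Both were past the fold in each set, though Sdhc was at 0.28 and 0.22 with TMM factors and at 0.09 in thinned cells of set 1, within the fold, and Sdhb of set 1 was at 0.31 with ribosomal protein, mt-, Malat1 and Neat1 UMIs left out of the total. Sdha, the flavoprotein subunit, was at 61.3 and 47.9 CPM in set 1, a log2 ratio of 0.36 (0.16 to 0.55), and at 69.6 and 60.9 in set 2, a ratio of 0.19 (-0.09 to 0.47) that was -0.06 with TMM factors. Sdhd, the other anchor, was at 98.5 and 86.2 CPM in set 1 and 70.8 and 57.2 in set 2, above no difference in both sets but within the fold.

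Complex III passes electrons from ubiquinol to cytochrome c. Its subunit gene Cyc1 is no member by name and is given with the lists below. The 8 nuclear members of this complex differed least in sum. Their sum was 2145 CPM in cycling and 2057 in other cells of set 1 and 2070 and 1775 in set 2. The log2 ratio of this sum was 0.06 in set 1 and 0.22 in set 2. Its direction depended on the scaling, at -0.05 in set 1 when only UMIs other than mt-, ribosomal protein, Malat1 and Neat1 were counted and at -0.03 in set 2 with TMM factors. The nuclear sums of complexes I, II, IV and V lay above 0 in both sets with these totals, with TMM factors and in thinned cells alike. Uqcrh, the acidic hinge subunit, gave the most UMIs of the complex, and its level was 573 CPM in cycling and 707 in other cells of set 1 and 597 and 723 in set 2. Its ratios were -0.30 (-0.36 to -0.24) and -0.28 (-0.37 to -0.19). Uqcr11 and Uqcr10, small subunits of the same complex, lay on the other side. Uqcr11 was at 188 and 147 CPM in set 1 and 178 and 96.4 in set 2, ratios of 0.36 and 0.89. Uqcr10 was at 373 and 281 CPM in set 1 and 317 and 213 in set 2, ratios of 0.41 and 0.57. Members of a single complex thus lay on both sides of no difference. Uqcrfs1, the Rieske iron-sulphur protein, was at 196 and 192 CPM in set 1 and at 164 and 154 in set 2, with intervals that include 0.

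Complex IV hands electrons to oxygen. Its 18 nuclear genes summed to 6528 CPM in cycling and 5846 in other cells of set 1 and 6734 and 5279 in set 2, 1.12-fold and 1.28-fold higher. The subunits differed among themselves. Cox5b was at 430 and 345 CPM in set 1 and 438 and 238 in set 2, log2 ratios of 0.32 and 0.88, and Ndufa4 was at 422 and 318 CPM in set 1 and 512 and 281 in set 2, ratios of 0.41 and 0.87. Cox4i1, the regulatory subunit to which ATP binds, was level, at 855 and 858 CPM in set 1 and 792 and 793 in set 2. Its ratios were -0.01 (-0.05 to 0.04) and -0.00 (-0.08 to 0.08), lower than the median of all genes in both sets, and with TMM factors that of set 2 was -0.26. Cox7a2l, which joins complexes III and IV into supercomplexes and of which C57/BL6 mice are known to carry a short form, was the member past the fold downward in both sets. It stood at 302 CPM in cycling and 399 in other cells of set 1 and at 255 and 405 in set 2, ratios of -0.40 (-0.48 to -0.32) and -0.67 (-0.81 to -0.53). With TMM factors these ratios were -0.45 and -0.92, and in thinned cells, classed before thinning, they were -0.47 and -0.78.

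Below no difference in cycling cells of both sets were 5 of 84 nuclear members, beside 2102 of 7562 among all genes. The 5 members were Cox7a2l, Uqcrh, Ndufa6, Cox4i1 and the assembly factor Ndufaf4. For Cox4i1 the intervals include 0 in both sets, and for Ndufaf4, a complex I assembly factor, they do so in set 2. These 5 were counted after the values were seen.

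Several subunits exist as paired forms of muscle and other tissues. The forms common outside muscle carried nearly all UMIs. Cox6a1 had between 224 and 298 CPM in the 4 groups, whereas its muscle form Cox6a2 had 0 UMIs. Cox8a had between 707 and 975 CPM, and Cox8b had 0 UMIs. A count of 0 allows up to 3 UMIs, or 0.182 CPM over the kept cells of set 1 and 0.166 over those of set 2. Cox7a2 was at 522 and 402 CPM in set 1 and 550 and 353 in set 2, and the muscle form Cox7a1 lay between 7.86 and 9.36 CPM. Cox6b1 lay between 372 and 492 CPM and its testis form Cox6b2 between 6.19 and 9.36. Cox4i2, the form known from lung and low oxygen, had 1 and 2 UMIs in cycling and other cells of set 1 and 0 and 4 in set 2. Ndufa4l2, a form known from low oxygen, had 13 and 8 UMIs in set 1 and 1 and 2 in set 2. Muscle marker genes summed to between 3.06 and 11.1 CPM in the 4 groups. Symbols with a near-identical copy or a pseudogene elsewhere can share reads, and how the authors' counting treated these is not given in the sources used here.

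ATP synthase uses the proton gradient to make ATP. Its 15 nuclear genes summed to 7060 CPM in cycling and 6284 in other cells of set 1 and 6800 and 5236 in set 2, 1.12-fold and 1.30-fold higher. Past the fold upward were 2 of 15 in set 1 and 12 in set 2, beside 22.5% and 32.3% of all genes, and 0 were past it downward. Atp5o.1, the table's own spelling of a gene of the stalk subunit OSCP, was at 322 and 231 CPM in set 1 and 277 and 173 in set 2, log2 ratios of 0.47 and 0.68. Atp5j, the stalk's coupling factor, was at 311 and 226 CPM in set 1 and 302 and 174 in set 2, ratios of 0.46 and 0.80. Atp5b, the catalytic subunit, was at 758 and 630 CPM in set 1 and 682 and 459 in set 2, ratios of 0.27 and 0.57. These 3 genes were higher in cycling cells of both sets, unlike Atp5e. Atp5e, the small epsilon subunit of the central stalk, was at 696 and 716 CPM in set 1 and 746 and 722 in set 2, with intervals that include 0. Atp5g1, Atp5g2 and Atp5g3 code the same mature ring subunit. Their log2 ratios ran from 0.16 to 0.31 in set 1 and from 0.42 to 0.46 in set 2. In thinned cells Atp5g3 was at 0.44 in set 1 and 0.38 in set 2. Atp5g2 was at 663 and 579 CPM in set 1 and 705 and 513 in set 2.

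The 8 complex I assembly factors, which build the complex but are not part of it, summed to 168 CPM in cycling and 169 in other cells of set 1 and to 170 and 137 in set 2. Their sum thus lay close to no difference in set 1, at a log2 ratio of -0.01 (-0.12 to 0.10). Ndufaf2 was at 25.8 and 16.8 CPM in set 1 and 22.8 and 10.1 in set 2, ratios of 0.62 and 1.18. Ndufaf1 had 11.4 and 17.3 CPM in set 1 with a log2 ratio of -0.60 (-1.01 to -0.21), and 10.5 and 9.32 CPM in set 2 with one of 0.18 (-0.62 to 0.89). Ndufaf1, Ndufaf4 and Cox7a2l were the 3 members past the fold downward in set 1.

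The mt- genes are read from long polycistronic transcripts that are cut at the tRNAs between them, and their levels depend on processing and decay as well as on transcription. Of 13, 0 were past the fold in either direction in cycling cells of set 1, and 6 were past it downward in set 2, beside 13.2% and 18.6% of all genes downward. With TMM factors, which lower the median gene there, 13 of 13 were past it downward in set 2, beside 35.8% of all genes. All 13 were lower in cycling cells of set 2, by log2 ratios from -0.17 for mt-Nd1 to -0.45 for mt-Co1, except that mt-Nd3 was at 0.07 in thinned cells. In set 1 they ran from -0.23 for mt-Co1 to 0.19 for mt-Nd6, which was at -0.23 in thinned cells. mt-Co1, the catalytic core of complex IV, stood at 6341 CPM in cycling and 7426 in other cells of set 1 and 4808 and 6547 in set 2. Its ratio was the lowest of the 13 in both sets. mt-Co2, which takes electrons from cytochrome c, was at 4489 and 4495 CPM in set 1 and 3123 and 3811 in set 2. mt-Cytb, the core of complex III, was at 3392 and 3411 CPM in set 1 and 1602 and 2107 in set 2. mt-Atp6, part of the proton channel, was at 6185 and 6193 CPM in set 1 and 4849 and 6116 in set 2. These 3 were level between cycling and other cells of set 1 and lower in cycling cells of set 2.

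**Figure D3:**
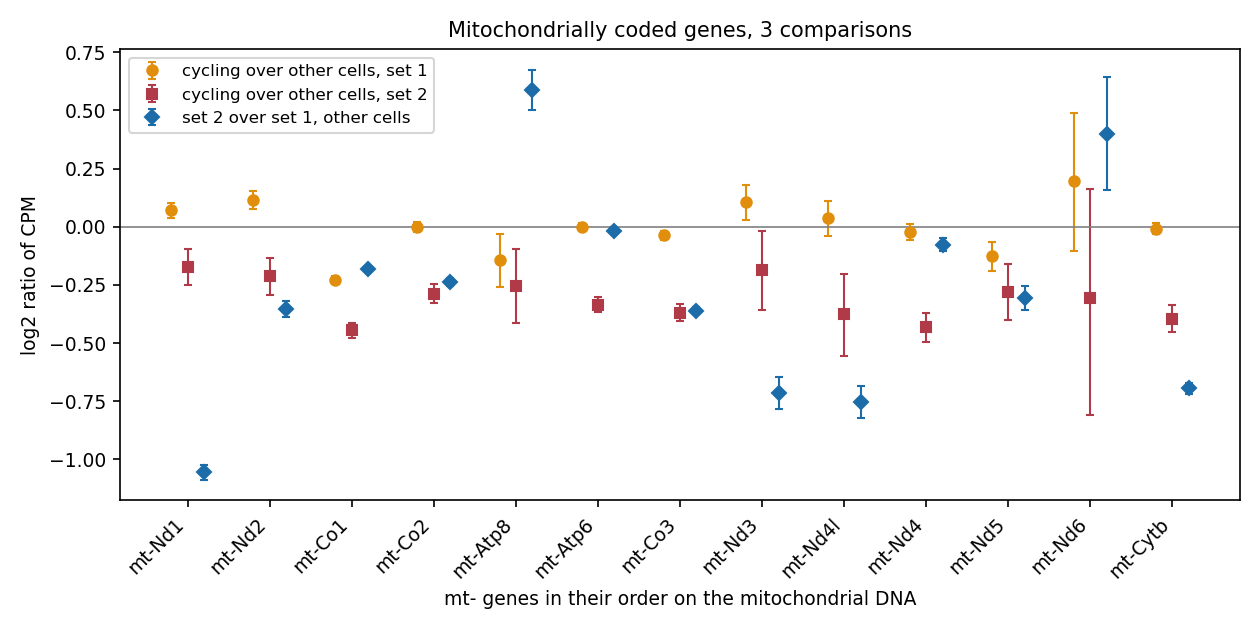
Log2 ratio of CPM for the 13 mt- genes in their order on the mitochondrial DNA, for cycling over other cells of each set and for set 2 over set 1 in other cells, with 95% intervals of counting error. The ratios of cycling cells lie between -0.23 and 0.19 in set 1 and between -0.45 and -0.17 in set 2, while those of set 2 over set 1 spread from -1.06 to 0.59.

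Between the sets, mt- genes spread far apart. In other cells, mt-Nd1 was at 1936 CPM in set 1 and 931 in set 2, a log2 ratio of -1.06 (-1.09 to -1.02), whereas mt-Atp8 was at 163 and 245, a ratio of 0.59 (0.50 to 0.67). In cycling cells the same genes lay at -1.30 and 0.48. mt-Nd3, mt-Nd4l and mt-Cytb were at -0.71, -0.75 and -0.70 in other cells, while mt-Atp6 was at -0.02. As shares of all mt- UMIs of other cells, mt-Nd1 took 5.69% in set 1 and 3.32% in set 2, and mt-Cytb 10.0% and 7.51%. mt-Atp6 took 18.2% and 21.8%. Such shares do not depend on the scaling of the libraries, so the makeup of the mt- RNA differed between the sets. Cycling and other cells of a set were closer than the sets were for mt-Nd1, at 6.19% and 5.69% in set 1 and 3.77% and 3.32% in set 2. For mt-Co1 they were not, at 19.3% and 21.8% in set 1, while other cells of set 2 were at 23.3%. mt-Nd2, mt-Co2 and mt-Nd5 also differed more between cycling and other cells of set 1 than between other cells of both sets. Some of these genes overlap on the mitochondrial DNA: mt-Atp8 and mt-Atp6 share 43 bases, mt-Nd4l and mt-Nd4 share 7, mt-Atp6 and mt-Co3 share 1, and mt-Nd5 shares 14 with mt-Nd6 on the opposite strand. Reads there cannot always be given to 1 gene, and the strand setting of the counting is not given in the sources used here. mt-Nd6 lay between 21.9 and 28.9 CPM in the 4 groups.

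Nuclear members were lower in set 2 than in set 1 among other cells. The summed log2 ratio was -0.22 (-0.23 to -0.21) in other cells and -0.02 (-0.03 to -0.00) in cycling cells, but with TMM factors it was -0.07 in both, so this contrast between other and cycling cells depended on the scaling. In other cells 39 of 85 members were lower by the fold and 2 were higher by it, beside 33.7% lower and 22.4% higher among all 8790 genes. With TMM factors 21 were lower (24.7%), a share near the 24.1% of all genes under the same factors. The median member lay at -0.27 and the median of all genes at -0.12. In cycling cells 8 of 80 were lower by that fold and 2 higher, beside 26.7% and 20.8% of 6651 genes, with medians of -0.02 and -0.07. With only UMIs other than mt-, ribosomal protein, Malat1 and Neat1 counted, those 8 and 2 became 15 and 1. Both ratios share no cells, but they come from the same 2 cell sets. The 8 lower in cycling cells were Ndufb7, Ndufs3, Ndufs6, Ndufs7, Sdhd, Uqcrc1, Atp5d and Atp5g3, and all 8 were also lower by that fold in other cells. Lower by the fold in both comparisons were thus 8 of 80 members, beside 19.9% of 6503 genes. In thinned cells Ndufs3 lay at -0.00 in cycling cells. Across 80 members the 2 ratios had a Pearson r of 0.62 and a Spearman rho of 0.60, again a description.

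**Figure D4:**
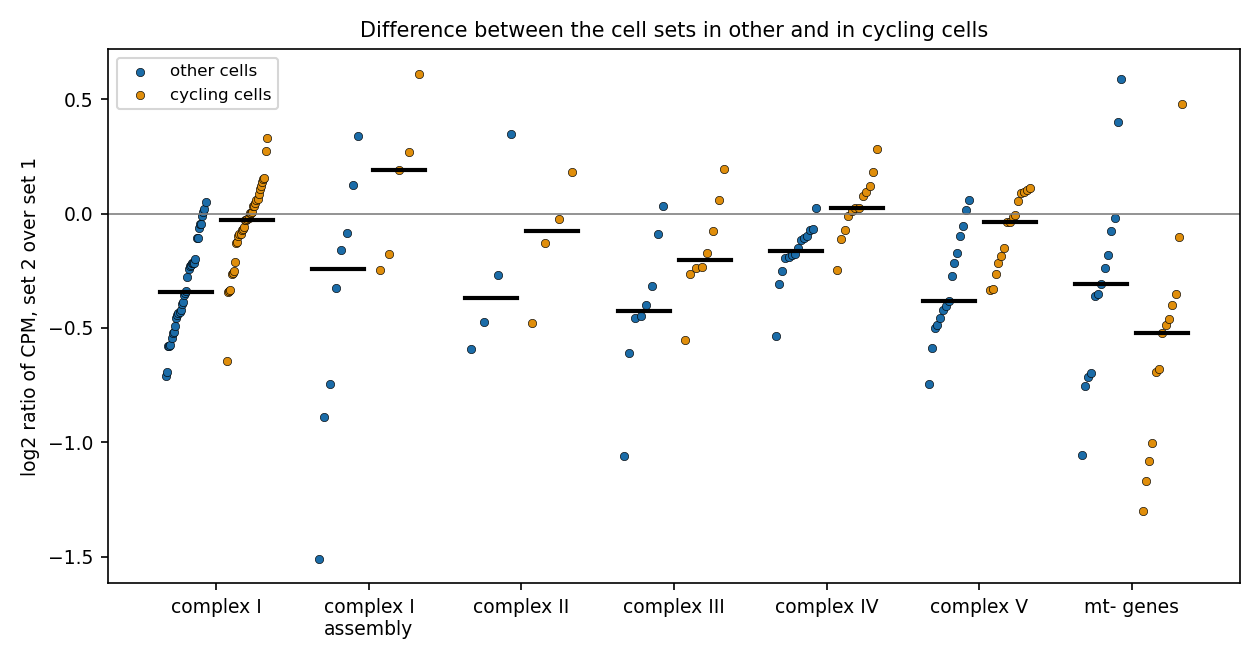
Log2 ratio of CPM, set 2 over set 1, for each member with at least 100 UMIs in the comparison, by complex, in other cells (blue) and cycling cells (orange), with black bars at the median of each column. In other cells 39 of 85 nuclear members are past the fold downward in set 2 against 8 of 80 in cycling cells, while the mt- genes spread from -1.30 to 0.59.

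Uqcrc1, a core subunit of complex III, was the subunit gene with the lowest ratio between the sets in other cells. It was at 84.7 CPM in set 1 and 40.6 in set 2, a log2 ratio of -1.06 (-1.21 to -0.91), and at 96.0 and 65.5 in cycling cells, a ratio of -0.55. Atp5d, the delta subunit of ATP synthase, was at 629 and 375 CPM in other cells and 642 and 510 in cycling cells, ratios of -0.75 and -0.33. Ndufb6, a membrane-arm accessory subunit, was at 109 and 66.6 CPM in other cells and 136 and 114 in cycling cells, ratios of -0.71 and -0.25. For all 3 the ratio was nearer to no difference in cycling cells. Ndufaf6, an assembly factor of few UMIs, had the lowest ratio of all members in other cells, -1.51 (-2.01 to -1.02), at 10.1 and 3.55 CPM. Sdha and the assembly factor Ndufaf5 were the 2 members past the fold upward in other cells. Sdha was at 47.9 CPM in set 1 and 60.9 in set 2, a ratio of 0.35 (0.18 to 0.51). The other 3 genes of complex II lay at -0.27 for Sdhc, -0.47 for Sdhb and -0.59 for Sdhd. Ndufa1 and the assembly factor Ndufaf7 were the 2 past the fold upward in cycling cells, with Ndufa1 at 219 and 275 CPM, a ratio of 0.33 (0.18 to 0.48) that was within the fold, at 0.27, with TMM factors.

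Among mt- genes 6 of 13 were past the fold downward in set 2 in other cells and 11 in cycling cells, beside 33.7% and 26.7% of all genes, while mt-Atp8 and mt-Nd6 were past it upward in other cells and mt-Atp8 in cycling cells. The summed mt- ratio was -0.28 (-0.28 to -0.27) in other cells and -0.59 (-0.60 to -0.57) in cycling cells. Nuclear UMIs per mt- UMI thus differed by a log2 ratio of 0.06 between the sets in other cells and of 0.57 in cycling cells. The value of other cells turned to -0.011 with no limit on mt- UMIs and was 0.20 in thinned cells classed before thinning, so its direction depended on that limit.

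Depth differed between all groups, so every cell with at least 3000 UMIs was thinned at random to exactly 3000, and 23 cells of set 1 and 493 of set 2 were too shallow for this. Cells were then divided by their UMIs of Mki67, Top2a and Birc5 in the thinned counts. Nuclear members gave 58.1 UMIs per cell at 0 marker UMIs, 62.0 at 1 to 2, 66.1 at 3 to 5 and 63.3 at 6 or more in set 1. In set 2 they gave 50.8, 54.4, 67.9 and 67.8. The mt- genes gave 107, 106, 100.1 and 107 UMIs in set 1 and 82.8, 78.4, 67.4 and 67.6 in set 2. At equal depth the nuclear members were thus higher in cells with 3 or more marker UMIs than in those with 0 in both sets, and the mt- genes were lower in set 2. The classes of set 2 with 3 to 5 and 6 or more marker UMIs held 44 and 64 cells. The unthinned means were 348 and 187 nuclear UMIs per cycling and other cell in set 1 and 210 and 82.9 in set 2.

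**Figure D5:**
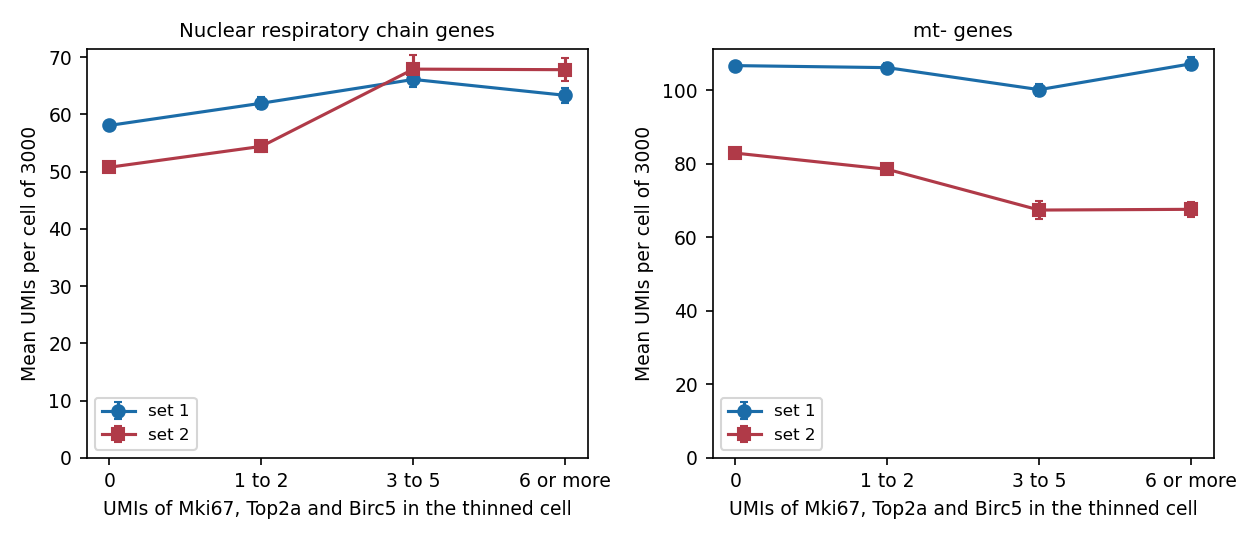
Mean UMIs per cell from nuclear members (left) and mt- genes (right) after each cell was thinned to 3000 UMIs, by the number of marker UMIs in the thinned cell, for set 1 (circles) and set 2 (squares), with 95% intervals of counting error. Nuclear means run from 58.1 to 66.1 in set 1 and from 50.8 to 67.9 in set 2.

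The limits of the rule were looked at on both sides. Cells of set 2 with 9 to 10% mt- UMIs (39 cells, kept) had 0.608% nuclear member UMIs and those with 10 to 11% (39 cells, left out) 0.545%. In set 1 the same classes held 4 and 3 cells, with 2.10% and 1.49%. Cells with 2 and with 3 marker UMIs had 2.13% and 2.10% in set 1 and 1.73% and 1.72% in set 2. Cells beside this marker limit thus hardly differed. Over the range of the mt- share, nuclear members made up 1.97% of UMIs other than mt- in set 2 cells with up to 2% mt- UMIs, 1.75% at 2 to 4%, 1.36% at 6 to 8% and 0.680% at 8 to 10%. The median depth was 5310, 5039, 2000 and 1285 UMIs in the same 4 classes. In set 1 the shares were 2.38%, 2.15%, 1.92% and 2.08%, the last over 21 cells, so no steady decline was seen among its kept cells. The median depths were 12023, 11565.5, 6983 and 4374 UMIs. Left-out cells of set 1 had 1.51% at 10 to 20% mt- UMIs (22 cells) and 0.586% above that (8 cells).

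Beside the members stand lists of genes that work with them, which are described by counts. Among all genes, 22.5% in set 1 and 32.3% in set 2 were past the fold upward in cycling cells, and 13.2% and 18.6% downward. Of the list called cytochrome c link, which holds Cycs, Cyc1 and Atpif1, 3 of 3 were past the fold upward in cycling cells of both sets. Cyc1 codes cytochrome c1, itself a subunit of complex III that the name rule left out of the members. It was at 98.4 and 70.6 CPM in cycling and other cells of set 1 and 88.3 and 55.8 in set 2. Cycs, cytochrome c itself, was at 149 and 113 CPM in set 1 and 218 and 120 in set 2, and Atpif1, the inhibitor of ATP synthase, was at 268 and 171 in set 1 and 257 and 168 in set 2. Of 13 genes of the tricarboxylic acid cycle, 6 were past the fold upward in set 1 and 7 in set 2, with 0 downward. Fh1, fumarate hydratase, was at 42.0 and 25.2 CPM in set 1 and 44.4 and 12.7 in set 2. No gene of either list was past the fold downward. Of complex IV assembly factors, 2 of 17 in set 1 and 6 of 16 in set 2 were past it upward and 1 and 0 downward, and of those of complexes II and III 0 of 8 and 2 of 7 upward and 0 and 2 downward. The upward counts of both assembly lists lay below the share of all genes in set 1. Of genes that keep and transcribe mitochondrial DNA, 1 of 10 in set 1 and 4 of 10 in set 2 were past the fold upward, and 1 and 0 downward. Tfam, which packs and helps transcribe mitochondrial DNA, was at 37.0 and 30.3 CPM in set 1 and 35.7 and 15.7 in set 2. Its level in other cells thus differed between the sets more than in cycling cells. Tfb2m, a transcription factor of mitochondria, was at 31.9 and 34.1 CPM in set 1 and 15.2 and 14.7 in set 2. Of transcriptional regulators, 1 of 6 and 2 of 6 were past it upward and 0 and 1 downward, and Nrf1, the factor after which the NRF1 letters are named, was at 42.9 and 27.2 CPM in set 1 and 31.6 and 22.7 in set 2. Of protein import genes, 4 of 24 and 12 of 24 were upward and 1 in each set downward. Of 5 antioxidant and uncoupling genes 0 were past the fold in either direction in both sets.

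Other housekeeping lists are set beside the nuclear members, with 22.5% and 32.3% of all genes past the fold upward in cycling cells of set 1 and set 2. Of mitochondrial ribosome genes, 29 of 76 in set 1 and 51 of 75 in set 2 were past the fold upward in cycling cells, with median log2 ratios of 0.24 and 0.44. Proteasome genes gave 9 of 38, near the share of all genes, and 30 of 37, with medians of 0.24 and 0.58. Between the sets in other cells the medians were -0.47 for the mitochondrial ribosome and -0.52 for the proteasome, further from 0 than that of nuclear respiratory chain members. Cytosolic ribosomal protein genes lay on the other side in cycling cells, with medians of -0.22 and -0.31. They summed to 273109 CPM in cycling and 321824 in other cells of set 1 and to 238286 and 295361 in set 2, so they took a lower share of UMIs in cycling cells. With ribosomal protein, mt-, Malat1 and Neat1 UMIs left out of the total, the summed nuclear ratio was 0.05 in set 1 and 0.22 in set 2. Past the fold were then 10 members upward (11.8%) and 5 downward in set 1, beside 16.1% and 21.2% of all genes. In set 2 they were 36 (42.9%) and 3, beside 22.7% and 27.4% of all genes. In set 1 the upward share of these calls was 66.7% there and 88.0% with all UMIs in the total. Among all genes that upward share was 43.2% and 63.0%.

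Signs of RNA quality and other cells also differed between the groups. Malat1, a long RNA that stays in the nucleus, had 10739 and 11431 CPM in cycling and other cells of set 1 and 17974 and 23009 in those of set 2. The 6 listed genes of RNA quality and handling, Malat1 among them, summed to 13404 and 14583 CPM in set 1 and 20285 and 26355 in set 2, and 0 of 6 were higher in cycling cells of either set. Keratinocyte markers summed to 90.6 and 122 CPM in set 1 and 12.9 and 14.3 in set 2. Fibroblast markers summed to 57.7 and 77.5 CPM in set 1 and 2.92 and 3.49 in set 2. The 5 erythroid genes were all lower in cycling cells, and Alas2, an enzyme of haem synthesis in erythroid cells, had at most 3 UMIs in any group. The part of these differences in the results above was not tested, other than by the alternative totals and a removal of cells. That removal left out cells with 3 UMIs of other cell types. After it the summed nuclear ratio was 0.16 in set 1 and 0.36 in set 2. The summed mt- ratio was then -0.015 (-0.034 to 0.004) in set 1, an interval that includes 0, and -0.38 in set 2.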

How the data were processed

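The deposited table holds UMI counts per gene symbol and cell, whole numbers that the authors had not scaled. The submitters' processing notes name Cell Ranger 3.1.0, Seurat 4.1.0 and mm10 without parameters, strand setting or filters. No doublet caller was run and no doublets were removed. Leaving out the deepest 5% of cells of each set stands as an alternative.

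Counts were summed over the cells of each group and given per 1000000 UMIs (CPM). The kept cells of sets 1 and 2 gave 16514632 and 18026148 UMIs. Intervals are exact 95% Poisson or binomial ones that reflect counting error alone, with 3 UMIs as the upper limit at a count of 0. The exception is nuclear UMIs per mt- UMI, whose 95% intervals are large-count approximations of Poisson error. PCR copies were already collapsed by the UMIs. Ratios were read for genes with at least 100 UMIs over both groups, and 1.25-fold was the fold counted. Because the groups have no replicates, no p-value was computed. The ratios and intervals were tested on simulated sums drawn with counting error alone. Such sums hold no spread between cells or libraries and could not test for it. Genes were named by the 2 highest and 2 lowest ratios per complex (CPM + 10), the gene with the most UMIs, isoform families and all mt- and Sdh genes. The members and lists were chosen with earlier results of these data known.

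Python 3.11.15, numpy 2.4.6, scipy 1.17.1, pandas 2.3.3 and edgeR 4.0.16, for TMM factors only, were used. Other alternatives were other limits on mt- UMIs, other totals, thinning to 3000 UMIs, a stricter cycling rule and other minimums and folds.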

Additional observations from a re-analysis of the deposited data

Results flagged for a closer look

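For 3 mt- genes of complex I, the counting interval of cycling over other cells lay above no difference in set 1 and below it in set 2, and the difference between the sets was not tested. mt-Nd1 had log2 ratios of 0.071 and -0.17, mt-Nd2 of 0.11 and -0.21, and mt-Nd3 of 0.11 and -0.19. With UMIs other than mt-, ribosomal protein, Malat1 and Neat1 as the total, mt-Nd1 was at -0.04 and mt-Nd3 at -0.01 in set 1. The same total shifts every gene of set 1 by -0.11, which takes away nearly all of the 0.11 of mt-Nd2. The opposite signs of these genes thus depended on the total, and mt-Nd3 was at 0.07 in thinned cells of set 2.

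For 5 nuclear members, the interval of set 2 over set 1 lay below no difference in other cells and above it in cycling cells, which was not tested either. Uqcrq, a small subunit of complex III, had log2 ratios of -0.090 and 0.19. Of complex IV, Cox8a had -0.11 and 0.12, Cox6c -0.066 and 0.18, and Ndufa4 -0.18 and 0.28. Atp5l, the subunit g of ATP synthase, had -0.054 and 0.11. With TMM factors Uqcrq, Cox8a, Cox6c and Atp5l were above 0 in other cells too, at 0.06, 0.04, 0.08 and 0.10, and Ndufa4 was at -0.03.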

How the results depend on the processing

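No paired analysis was possible because the labels give no replicate numbers and the results come from no test, and both cell sets were taken as conditions of their own, not as replicate pairs. With no replicates, a value was said to move when it left the counting interval of the reported one, and a count when it changed by over 1.5 times. Of 120 recomputed values 49 stayed within, 70 moved in the same direction and 1 changed sign, namely nuclear per mt- UMI between the sets in other cells, at -0.011 with no mt- limit. The narrow total counts UMIs other than mt-, ribosomal protein, Malat1 and Neat1. It, the removal of cells with 3 UMIs of other cell types (which left 74 cycling cells of set 1 and 126 of set 2) and classing cells before thinning were chosen after seeing the data. Of other cells the removal left 312 of 990 in set 1 and 2862 of 3331 in set 2. The lists it used hold keratinocyte, fibroblast and erythroid genes among others, and the mast cell list holds Kit. Kit, which some ILCs also express, lay between 106 and 161 CPM in the 4 groups. Which list removed a cell was not tested.

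In set 1 the summed nuclear log2 ratio of cycling over other cells (0.16) was 0.14 in thinned cells, 0.19 with 5 marker UMIs against 0, 0.14 without the deepest cells, 0.11 with TMM factors and 0.050 with the narrow total. In set 2 it (0.36) was 0.38 with no mt- limit, 0.41 in thinned cells, 0.43 with 5 marker UMIs against 0, 0.30 without the deepest cells, 0.10 with TMM factors and 0.22 with the narrow total. The mt- ratio of cycling cells (-0.05) in set 1 was -0.022 with a limit of 5% mt- UMIs, -0.075 with no mt- limit, -0.075 with 5 marker UMIs against 0, -0.022 without the deepest cells, -0.10 with TMM factors, -0.16 with the narrow total, -0.015 without cells of other-type UMIs and -0.072 in thinned cells classed before thinning. That of set 2 (-0.36) was -0.29 with a limit of 5% mt- UMIs, -0.44 with no mt- limit, -0.29 in thinned cells, -0.41 with 5 marker UMIs against 0, -0.24 without the deepest cells, -0.61 with TMM factors, -0.50 with the narrow total, -0.38 without cells of other-type UMIs and -0.30 in thinned cells classed before thinning. Nuclear per mt- UMI in cycling cells of set 1 (0.21) was 0.18 with a limit of 5% mt- UMIs, 0.24 with no mt- limit, 0.18 in thinned cells, 0.26 with 5 marker UMIs against 0, 0.17 without the deepest cells, 0.18 without cells of other-type UMIs and 0.24 in thinned cells classed before thinning. The same balance in set 2 (0.72) was 0.64 with a limit of 5% mt- UMIs, 0.81 with no mt- limit, 0.84 with 5 marker UMIs against 0, 0.54 without the deepest cells, 0.74 without cells of other-type UMIs and 0.65 in thinned cells classed before thinning. Between the sets in other cells, the nuclear ratio (-0.22) was -0.23 with no mt- limit, -0.20 in thinned cells, -0.23 per UMI other than mt-, -0.068 with TMM factors, -0.26 with the narrow total, -0.20 without cells of other-type UMIs and -0.18 in thinned cells classed before thinning. The mt- ratio between the sets (-0.28) was -0.24 with a limit of 5% mt- UMIs, -0.22 with no mt- limit, -0.37 in thinned cells, -0.29 with 5 marker UMIs against 0, -0.27 without the deepest cells, -0.29 per UMI other than mt-, -0.13 with TMM factors, -0.32 with the narrow total, -0.31 without cells of other-type UMIs and -0.38 in thinned cells classed before thinning. Nuclear per mt- UMI between the sets (0.06) was 0.025 with a limit of 5% mt- UMIs, -0.011 with no mt- limit, 0.17 in thinned cells, 0.075 with 5 marker UMIs against 0, 0.046 without the deepest cells, 0.10 without cells of other-type UMIs and 0.20 in thinned cells classed before thinning. The 22 nuclear members past the fold upward in cycling cells of set 1 became 10 with the narrow total and 2 at 1.5-fold. The 10 are 11.8% of members, beside 16.1% of all genes with that total. The 54 of set 2 became 27 with TMM factors and 26 at 1.5-fold. The 39 past it downward between the sets became 21 with TMM factors and 10 at 1.5-fold. The share of all genes at 1.5-fold was not counted, so these falls are not read as particular to the members.

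TMM factors shifted the median gene by -0.26 in cycling cells of set 2 and by 0.15 between the sets in other cells, and the narrow total by -0.11 and -0.14 in cycling cells of set 1 and set 2. With no minimum of UMIs or a minimum of 20 the 3 counts stayed within 1.5 times. Depth limits Cox4i2, Cox6a2, Cox8b, Ndufa4l2 and Atp5s, which had fewer than 100 UMIs.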
